A study of Mus musculus with 12 samples.

Results

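The C against S difference in trigeminal ganglia was set against the same difference in the brainstem nucleus that receives their input, gene by gene, as (CTG minus STG) minus (CSp5C minus SSp5C). The libraries were selected from the sample titles, and the contrast used 12 of the 12 libraries of the series, 3 in each of 4 groups. A positive value means that C lay higher above S, or less far below it, in the ganglion than in the nucleus. A negative value means the reverse. This contrast, an interaction of letter and tissue, is the only one of the design that asks whether both tissues differed in the same way, which a call in one tissue and none in the other cannot answer. The series is about lasting inflammatory pain of the temporomandibular joint, the joint of the jaw.

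STG and CTG are trigeminal ganglia (TG), and SSp5C and CSp5C are spinal trigeminal nucleus caudalis (Sp5C). All 4 groups were wild-type C57BL/6 mice, an inbred laboratory strain, aged 8 weeks per the labels, and no genotype or agent that differs between them is named there. What S and C stand for is not given, so the letters are used as they stand. Whether a group's 3 libraries stem from different mice is not stated either, and p-values therefore reflect the scatter of these samples alone, which may be technical. The values are FPKM, by name fragments per kilobase of transcript, scaled to the mapped fragments of the library, with transcripts summed per gene. Whether a further scaling between libraries was applied before deposit was not examined. Before differences were taken, a pseudocount was added and log2 applied (1 FPKM in the protein-coding table, 0.5 FPKM for long non-coding RNA, lncRNA), so changes of low genes are understated.

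The trigeminal ganglion holds the cell bodies of the sensory neurons of the face and jaw, wrapped by satellite glia and, along their axons, by Schwann cells. The Sp5C is the part of the brainstem trigeminal complex that receives pain and temperature input from these neurons, and it holds excitatory and inhibitory relay neurons, astrocytes and oligodendrocytes. A lncRNA is an RNA transcript with no long reading frame. Many annotated ones lie inside introns of protein-coding genes, and on the host's strand the reads of such a lncRNA and of the unspliced RNA of its host cannot be told apart in these values.

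The labelled tissues carried their defining transcripts. The mean log2(FPKM + 1) of 10 genes of peptidergic pain neurons lay between 5.22 and 5.55 in the 6 TG libraries and between 1.55 and 2.01 in the 6 Sp5C libraries. Over 15 genes of glycine and GABA transmission it lay between 2.03 and 2.17 in TG and between 5.19 and 5.33 in Sp5C. The FPKM of protein-coding genes summed to between 285789 and 319060 per library. The files give no read numbers, so the depth is unknown and no counting interval can be given. A single assembled locus, XLOC_000066, held 25.8% to 41.3% of a library's total FPKM.

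No protein-coding gene passed the test of the difference of effects. Of 21981 genes, 13081 had a mean of at least 1 FPKM and were tested with limma, 0 of them (0%) had an adjusted p under 0.05, and the lowest adjusted p was 0.862. At an unadjusted p under 0.05 there were 708 genes (5.41%), 276 positive (2.11%) and 432 negative (3.3%). The interaction was positive for 6288 genes and negative for 6793, with a median of -0.007 and an SD across genes of 0.25. The effects themselves had an SD of 0.20 in TG and 0.18 in Sp5C, and each had 0 genes past the threshold in this fit, with 791 and 707 at an unadjusted p under 0.05. Of all genes 48.9% had effects of the same sign in both tissues.

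The precision of the contrast sets what could have been seen. The 95% confidence interval of a gene's interaction reached a median of 0.30 to either side on the log2 scale. It was widest for the 3885 genes between 1 and 5 FPKM, at 0.38, and narrowest for the 2804 genes between 20 and 100 FPKM, at 0.24. Of the 708 genes at an unadjusted p under 0.05, 653 (92.2%) had effects of opposite sign, which the contrast itself favours. C lay below S in every TG library and above it in every Sp5C library for 53 genes (0.405% of those tested), and the reverse held for 43 (0.329%). In TG alone 831 genes (6.35%) had every C library below every S library, and in Sp5C alone 619 (4.73%) had every C library above.

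Among the genes with a positive interaction, Btf3, a subunit of the complex that binds nascent proteins at the ribosome, had the smallest p. Btf3 stood at 70.9, 68.7 and 51.8 FPKM in STG, 82.4, 74.2 and 74.3 in CTG, 65.4, 68.3 and 70.3 in SSp5C and 49.1, 43.6 and 46.7 in CSp5C. Every CTG library lay above every STG library and every CSp5C library below every SSp5C library. The interaction was 0.82 (SE 0.15, unadjusted p = 0.000175, adjusted p = 0.862 by limma). Btf3 has processed copies elsewhere in the genome, and how reads shared between copies were counted is not given in the sources used here. Zfp68, a zinc finger gene (0.83), and Igsf8, a membrane protein that binds tetraspanins (0.94), followed.

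Igsf8 illustrates a contrast carried by the nucleus. It stood at 19.97, 20.6 and 18.9 FPKM in STG and 19.9, 21.7 and 21.1 in CTG, which overlap, and at 49.0, 41.5 and 37.3 in SSp5C against 18.2, 26.6 and 24.2 in CSp5C, which do not. The TG effect was 0.07 and the Sp5C effect -0.87. Zfp68 (0.13 in TG, -0.69 in Sp5C) and Tmem151a (0.02 and -0.59) had the same form, whereas Slc6a8, the creatine transporter, had its larger effect in TG (0.48 against -0.13). Snx25, a sorting nexin, Atp5d, a subunit of the mitochondrial ATP synthase, and Tmem98 had groups that parted in both tissues, with interactions of 0.42, 0.27 and 0.62. Ddr1, a collagen-binding receptor tyrosine kinase (0.26), and Wdr91 (0.32) completed the positive side together with Ibsp and Epo, described further on. All of these had an adjusted p of 0.862.

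On the negative side Pln, phospholamban, the inhibitor of the calcium pump of the endoplasmic reticulum, had the smallest p. Pln stood at 1.31, 2.04 and 1.54 FPKM in STG, 1.11, 0.510 and 0.337 in CTG, 0.599, 0.578 and 0.331 in SSp5C and 1.74, 0.989 and 1.44 in CSp5C. The groups did not overlap in either tissue, and C lay below S in TG and above it in Sp5C. The interaction was -1.35 (SE 0.26, unadjusted p = 0.000329, adjusted p = 0.862 by limma). These are low values near the filter, where the pseudocount weighs most.

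Usp53, of the ubiquitin-specific peptidase family, and Chd2, a chromatin remodeller, parted only in the nucleus. Usp53 stood at 8.21, 9.70 and 9.68 FPKM in SSp5C and 11.96, 13.4 and 12.5 in CSp5C, with overlapping ganglia (interaction -0.57). Chd2 stood at 11.7, 13.4 and 13.3 FPKM in SSp5C and 17.2, 16.8 and 18.2 in CSp5C (interaction -0.60). Prokr2, a prokineticin receptor, Cyp4f17, Sh2d4b and the cadherin Cdh7 parted only in the ganglion, with TG effects of -0.87, -0.62, -0.71 and -0.40 and interactions of -0.85, -0.71, -0.71 and -0.46. Prokr2 stood at 4.31, 4.26 and 5.02 FPKM in STG and 2.05, 2.08 and 1.94 in CTG, and did not exceed 0.439 FPKM in any Sp5C library.

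Plekha7, an adherens junction protein, Zic4, a zinc finger transcription factor of the hindbrain, and Cnot2, a subunit of the CCR4-NOT deadenylase complex, parted in both tissues. Zic4 stood at 0.475, 0.516 and 1.12 FPKM in STG, 0.295, 0.343 and 0.0450 in CTG, 1.51, 1.89 and 1.71 in SSp5C and 2.87, 2.53 and 3.05 in CSp5C. C was therefore lower in the ganglion and higher in the nucleus, with an interaction of -0.96, against -0.66 for Plekha7 and -0.43 for Cnot2. The RNA helicase Ddx17 (-0.43) and Zfp280c (-0.73) completed the negative side, again with an adjusted p of 0.862 each. For several of these genes a single transcript carried most of the contrast. Transcript rows gave 73.7% of the FPKM interaction of Tmem151a in ENSMUST00000140389 and 60.9% of that of Chd2 in ENSMUST00000026895. In others the gene's value was the net of transcripts that moved in opposite directions. Snx25 had 221% in ENSMUST00000170416 and -139% in ENSMUST00000041582. Slc6a8 had 135% in ENSMUST00000114465 and -69.0% in ENSMUST00000168831. Ddr1 had 74.3% in ENSMUST00000166980 and -63.5% in ENSMUST00000003628. For Plekha7, 61.0% came from ENSMUST00000181981, at 0.332, 7.11 and 0.278 FPKM in STG.

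**Figure D1:**
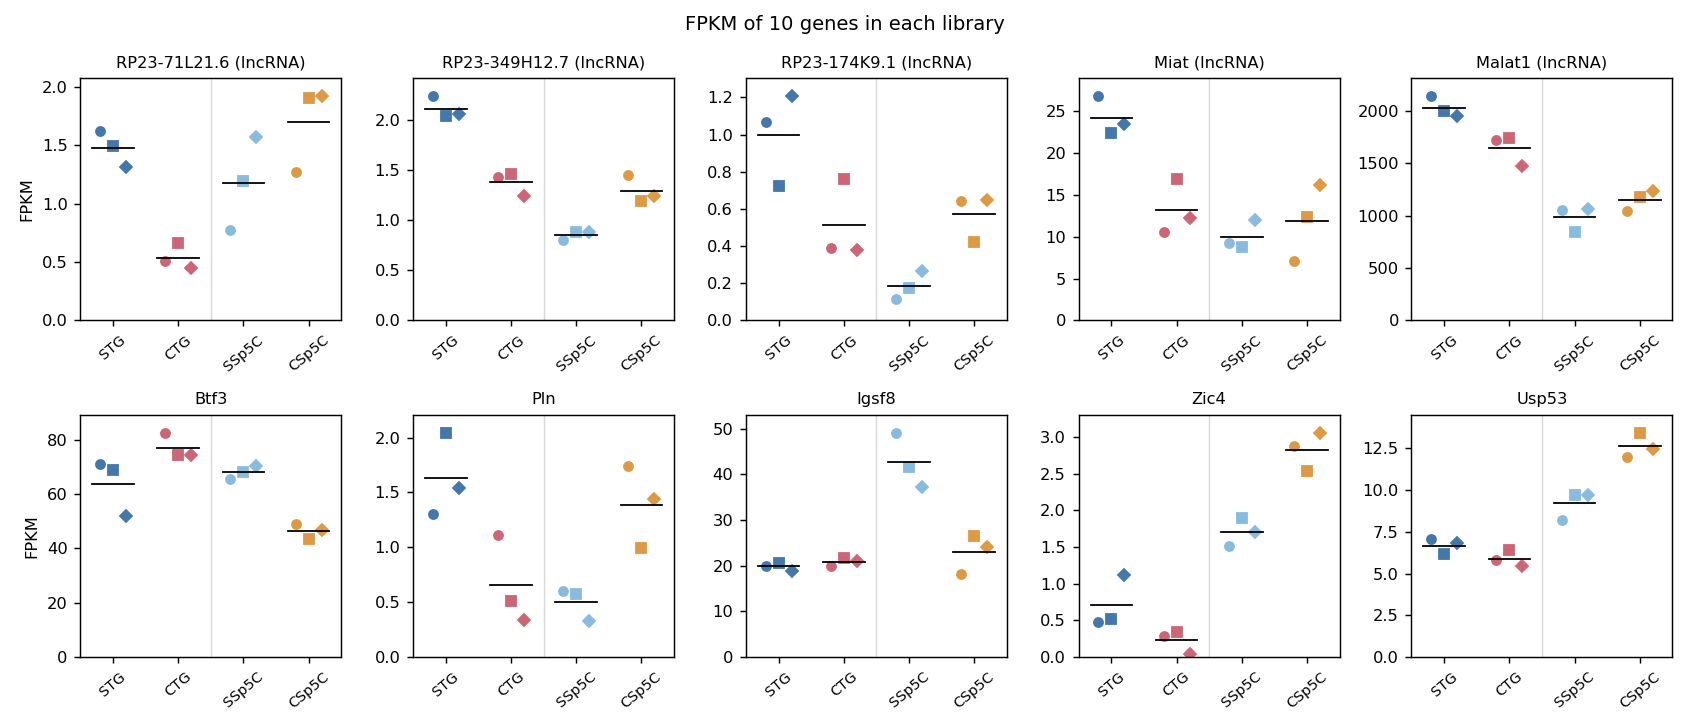
FPKM (vertical axes, from 0) of 5 lncRNA and 5 protein-coding genes in the 12 libraries. Circles, squares and diamonds are replicates 1, 2 and 3, and lines are group means. In RP23-349H12.7, Pln and Zic4 each CTG library lies below each STG library and each CSp5C library above each SSp5C library, while Btf3 has the reverse pattern and Igsf8 parts only in Sp5C.

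Annotated lncRNA differed from this picture. Of 2315 annotated lncRNA genes, 1431 had a mean of at least 0.5 FPKM and were tested, and 44 (3.07%) passed at an adjusted p under 0.05 by limma, all 44 with a negative interaction. In each of the 44 mean C lay below mean S in TG and above it in Sp5C, which was so without overlap of libraries for 42 in TG, 25 in Sp5C and 23 in both. Of all annotated lncRNA tested, 31.4% parted this way in TG, 13.6% in Sp5C and 5.38% in both. Their interactions ran from -1.33 to -0.74, with a median of -0.96, and 17 were at or below -1. The adjusted p of the 44 lay between 0.0477 and 0.0497, close under the threshold.

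The 44 stood out of a table that leaned one way as a whole. The interaction was negative in 1182 of 1431 annotated lncRNA (82.6%), with a median of -0.37, made up of a median effect of -0.22 in TG and 0.13 in Sp5C. At an unadjusted p under 0.05 there were 472 (33%), of which 468 (32.7%) were negative and 4 (0.28%) positive. C lay below S in every TG library and above it in every Sp5C library for 77 (5.38%), and the reverse held for 0. In TG alone 13 (0.908%) passed, all lower in C, and in Sp5C alone 0 did, with 185 at an unadjusted p under 0.05.

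The lean and the calls depended on scaling within the lncRNA table. Scaling the libraries to equal median ratios over this table moved the median interaction by more than 0.1, from -0.37 to -0.0015, and left 718 of 1431 negative (50.2%), with 93 negative and 135 positive at an unadjusted p under 0.05 and 0 past the threshold (lowest adjusted p 0.199). Relative to that centre the 44 remained negative, at a median of -0.55 and between -0.95 and -0.26. They had been picked as strongly negative in these same data, so their sign after scaling is no separate support. Scaling by the median ratios of protein-coding genes, an alternative chosen after seeing the data, kept 28 of the 44 calls and added none.

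How many passed also depended on the replicate numbers and on single libraries. With the number as a block over all groups, or letter and number across tissues, 0 passed. Same-numbered CTG and CSp5C libraries deviated together (r = 0.48, 0.33 and 0.25 in this table), while those of STG and SSp5C did not (-0.10, -0.08 and 0.03). Without STG replicate 1, CTG replicate 1, CTG replicate 3, SSp5C replicate 1, SSp5C replicate 2, CSp5C replicate 2 or CSp5C replicate 3 there were 0 calls. Without STG replicate 2 there were 18, without STG replicate 3 29, without CTG replicate 2 54, without SSp5C replicate 3 107 and without CSp5C replicate 1 228, of which 227 were negative. The median over the table stayed between -0.41 and -0.30 in these 12 fits.

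The lncRNA differed in this lean by their place in the genome. By the gene models of GENCODE M21 (GRCm38), used for relative position only since the build of the files is not given in the sources used here, 631 tested lncRNA lay inside an intron of another gene on the same strand. Of these, 617 had a negative interaction (97.8%), and the median was -0.53, from -0.31 in TG and 0.22 in Sp5C. Among the 44 called, 35 were of this class, 5.55% of it beside 3.07% of all annotated lncRNA tested. Another 356 lncRNA overlapped no protein-coding gene and did not lie within 5 kb downstream of one on its strand. They had a median of -0.16 with 251 negative and 3 called (0.843%). The 300 on the opposite strand of a gene had a median of -0.14 with 207 negative and 3 called (1%). The 35 that lie inside a gene on the same strand over its exons had a median of -0.44. After scaling within the table the intronic class was still negative in 498 of 631 (78.9%), at a median of -0.16, whereas the class of 356 moved to 0.20.

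The annotation's own classes gave the same order. TEC genes, a class of transcribed regions still awaiting experimental proof, had a median of -0.51 with 560 of 577 negative and 32 called (5.55%, beside 3.07% overall). Sense intronic lncRNA had a median of -0.51 with 106 of 115 negative and 5 called (4.35%). Long intergenic lncRNA (lincRNA) had a median of -0.17 (221 of 310 negative, 2 called, 0.645%). Processed transcripts stood at -0.16 (137 of 186, 3 called, 1.61%) and antisense lncRNA at -0.08 (121 of 193, 1 called, 0.518%). TEC and sense intronic genes largely overlap with the intronic class above, so these are not separate observations.

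**Figure D2:**
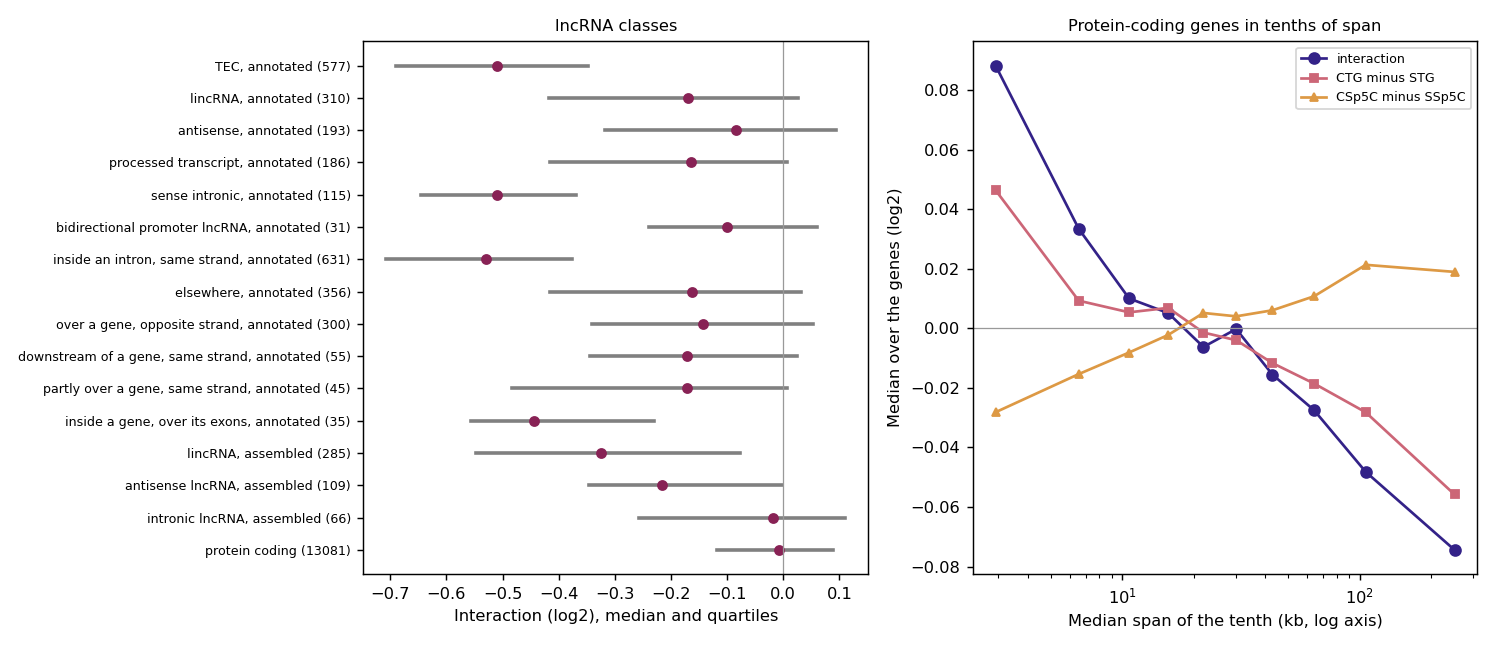
Left, median (point) and quartiles (bar) of the log2 interaction in lncRNA classes and in protein-coding genes, with the number tested in brackets. Right, median interaction and median effect in each tissue (log2) over 10 equal bins of protein-coding genes ordered by genomic span (log axis). Intronic same-strand lncRNA lie lowest at -0.53, and the median over protein-coding genes falls from 0.09 in the bin of shortest genes to -0.07 in that of the longest.

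The level of a class in a library was taken as the median, over its genes, of the difference from the gene's mean in that tissue. For intronic same-strand lncRNA this was 0.30, 0.05 and 0.11 in STG and -0.11, -0.10 and -0.26 in CTG. It was -0.21, -0.14 and 0.01 in SSp5C and -0.03, 0.12 and 0.24 in CSp5C. The ganglion groups did not overlap, and in the nucleus SSp5C replicate 3 lay above CSp5C replicate 1. All protein-coding genes together stayed between -0.03 and 0.03 in every library, with overlapping groups in both tissues.

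The share of all FPKM taken by XLOC_000066 moved with these levels in part. It was 25.8%, 33.7% and 33.7% in STG and 35.7%, 35.3% and 33.9% in CTG, and 41.3%, 28.3% and 28.1% in SSp5C against 29.1%, 32.2% and 32.02% in CSp5C. STG replicate 1, with the lowest share in TG, had the highest intronic lncRNA level, and SSp5C replicate 1, with the highest share, had the lowest in its tissue. Other libraries did not follow this. SSp5C replicates 2 and 3 had the lowest shares in Sp5C at levels of -0.14 and 0.01. CSp5C replicates 2 and 3 had higher shares and the highest levels, 0.12 and 0.24. In TG, STG replicate 2 and CTG replicate 3 had similar shares at levels of 0.05 and -0.26. The part of this locus in the result was not tested. Its own interaction was 0.34 (adjusted p = 0.602 by limma).

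**Figure D3:**
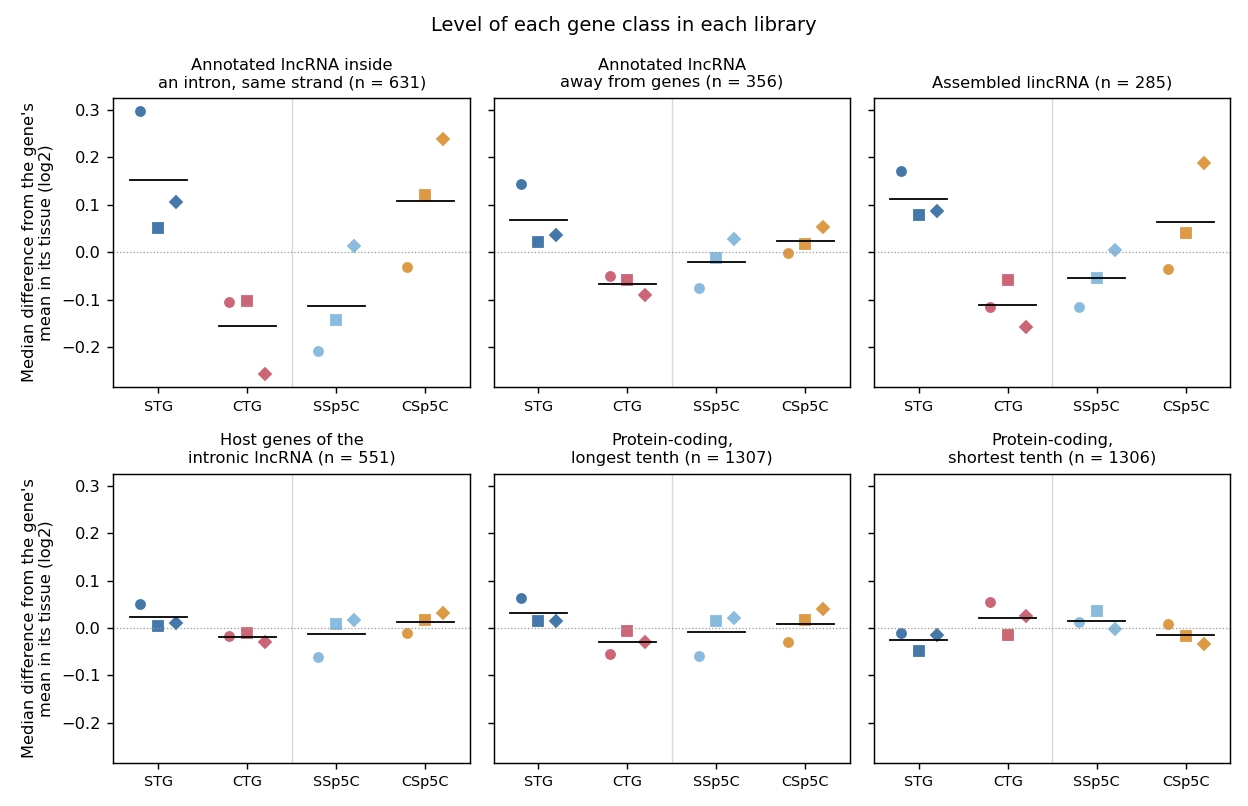
Level of 6 gene classes in each library, as the median log2 difference of a gene from its mean in that tissue (vertical axis). Away from genes here means overlapping no protein-coding gene and not within 5 kb downstream of one on its strand. Circles, squares and diamonds are replicates 1, 2 and 3, and lines are group means of 3 libraries. Intronic lncRNA are at or above 0.05 in STG and at or below -0.10 in CTG, and their host genes stay between -0.06 and 0.05 in all 12 libraries.

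The 5 called lncRNA with the smallest p, all at an adjusted p of 0.0477 by limma, show the pattern at single genes. RP23-71L21.6 (ENSMUSG00000114624.1), a TEC gene of 1 exon inside an intron of Cadps, a regulator of vesicle release, stood at 1.62, 1.496 and 1.32 FPKM in STG and 0.505, 0.664 and 0.445 in CTG. It stood at 0.778, 1.20 and 1.57 FPKM in SSp5C and 1.27, 1.90 and 1.92 in CSp5C. C lay below S in every ganglion library and overlapped it in the nucleus, with an interaction of -1.33 (SE 0.26). The host Cadps had an interaction of 0.07 (adjusted p = 0.953).

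RP23-349H12.7 (ENSMUSG00000112734.1), a sense intronic lncRNA in Cep85l, parted in both tissues. It stood at 2.24, 2.05 and 2.06 FPKM in STG, 1.44, 1.46 and 1.24 in CTG, 0.805, 0.883 and 0.885 in SSp5C and 1.45, 1.20 and 1.24 in CSp5C. C was lower than S in every ganglion library and higher in every nucleus library (interaction -0.88, SE 0.18). Cep85l itself was at -0.21 (adjusted p = 0.898). RP23-174K9.1 (ENSMUSG00000086385.1), sense intronic in Ror1, a receptor tyrosine kinase-like protein, stood at 0.117, 0.172 and 0.265 FPKM in SSp5C against 0.643, 0.422 and 0.647 in CSp5C, with an interaction of -1.22, while its ganglion groups overlapped, and Ror1 was at -0.31.

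RP23-457L16.2 (ENSMUSG00000115087.1), a TEC gene over exons of Dgkh, a diacylglycerol kinase, had its larger effect in the ganglion. It stood at 4.11, 3.34 and 3.31 FPKM in STG and 1.298, 2.14 and 1.46 in CTG, and overlapped in the nucleus, where no library exceeded 0.723 FPKM (interaction -1.26). RP23-306D20.7 (ENSMUSG00000085767.1), an antisense lncRNA over Entr1, parted in both tissues at -0.89, with STG at 1.45, 1.25 and 1.29 FPKM, CTG at 0.651, 0.803 and 0.721, SSp5C at 0.85, 0.944 and 0.993 and CSp5C at 1.25, 1.16 and 1.40. It is the only one of the 44 that the annotation types as antisense, while by position 3 of the 44 lay over a gene on the opposite strand. The interactions of these 5 stayed negative in all alternatives run, between -2.13 and -0.47, and each lost its call under some, with adjusted p up to 0.222.

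The 35 called intronic lncRNA lay in 32 host genes, and 1 of them was chosen for description after the values were seen. Ank2, the gene of ankyrin-B, an adaptor between membrane proteins and the spectrin skeleton, spans 578 kb and held the most, 4 called of 6 tested, and all 6 were negative (-1.14 to -0.79). RP24-163F11.1, the lowest of the 6, stood at 1.83, 1.01 and 0.896 FPKM in STG, 0.540, 0.688 and 0.407 in CTG, 0.680, 0.732 and 0.642 in SSp5C and 0.846, 1.07 and 1.41 in CSp5C. Its groups did not overlap in either tissue.

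Ank2 itself did not follow its intronic lncRNA. It stood at 264, 284 and 254 FPKM in STG, 266, 278 and 267 in CTG, 203, 204 and 224 in SSp5C and 223, 206 and 225 in CSp5C. Both pairs of groups overlapped, and the interaction was -0.03 (adjusted p = 0.983). The 6 lncRNA share 1 host, so they are not 6 separate observations.

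Host genes had smaller interactions than the lncRNA inside them. The 625 intronic lncRNA whose host was tested had 551 hosts. The hosts had a median interaction of -0.06, against a median of -0.53 for the lncRNA. Of the 551 hosts 372 were negative (67.5%), beside 51.9% of all protein-coding genes tested and 70.5% of the 1307 of longest span. At an unadjusted p under 0.05 by limma there were 36 of 551 hosts, beside 708 of 13081 protein-coding genes (5.41%). Past the adjusted threshold there were 0 hosts. The lncRNA lay lower than its own host in 590 of 625 pairs (94.4%), by a median of 0.47. Across pairs the 2 interactions were only weakly related (Pearson r = 0.12, Spearman rho = 0.11, n = 625 pairs), as a description, since pairs share hosts and libraries.

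Taking the host's log2 value from the lncRNA's in each library and fitting the same contrast, an analysis added after seeing the data, gave 20 of 625 pairs past the threshold, all negative, with a lowest adjusted p of 0.0257 by limma and 257 pairs at an unadjusted p under 0.05, of which 1 was positive. For this count 0 pairs passed without STG replicate 1, CTG replicate 1, SSp5C replicate 2, CSp5C replicate 2 or CSp5C replicate 3, 1 without CTG replicate 3 or SSp5C replicate 1, 24 without CTG replicate 2, 27 without STG replicate 3, 51 without SSp5C replicate 3, 74 without STG replicate 2 and 157 without CSp5C replicate 1. With each table scaled to equal median ratios 0 pairs passed and the median was -0.11.

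A weaker gradient of the same direction ran through protein-coding genes by genomic span, the distance from the first to the last base of the gene with its introns. When genes were put in 10 bins by span, in the 1306 shortest, with a median span of 2.92 kb, the median interaction was 0.09 and 31.2% were negative. In the 1307 longest, with a median span of 251 kb, it was -0.07 and 70.5% were negative. In between it fell almost step by step. The shortest bin had 69 positive and 15 negative genes at an unadjusted p under 0.05 (6.43% of the bin). The longest had 7 positive and 85 negative (7.04%). Of all genes tested this was 5.41%, with 2.11% positive and 3.3% negative. By library level, C and S overlapped in both tissues for the shortest bin. For the longest bin they parted in TG and overlapped in Sp5C. Spearman's rho of span with the interaction was -0.23 across 13064 genes, with -0.21 for the TG effect and 0.11 for the Sp5C effect. It is a description across genes, which share the libraries. Median-ratio scaling left both ends on their sides (0.10 and -0.06).

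**Figure D4:**
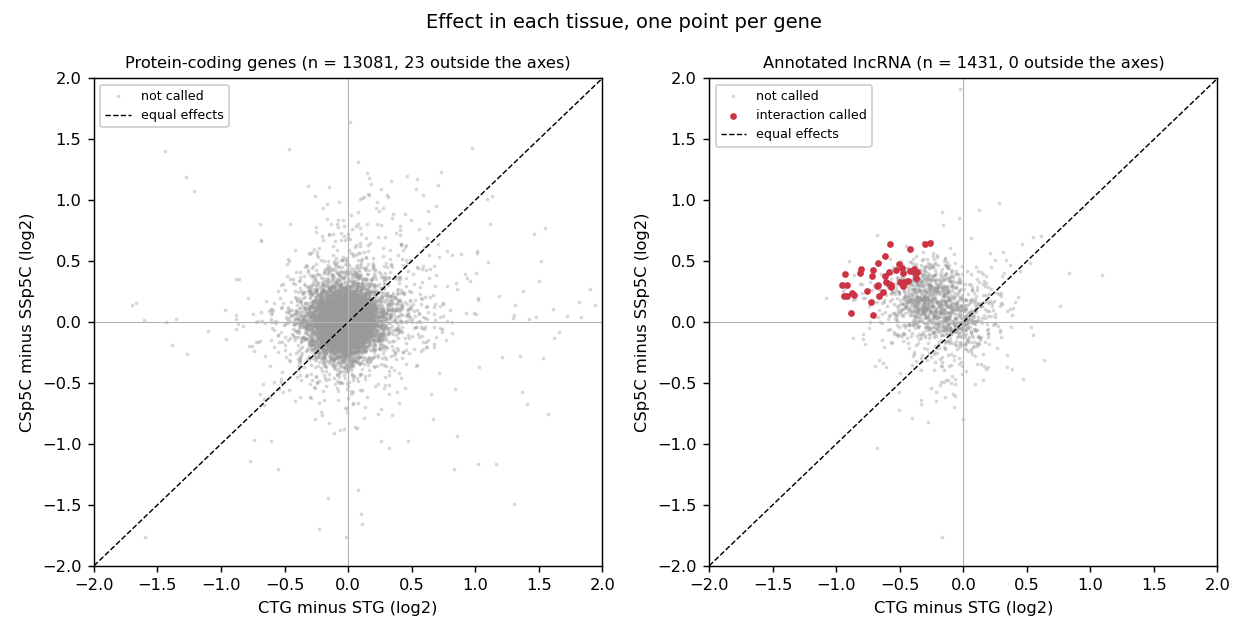
C minus S in the ganglion (horizontal) against C minus S in the nucleus (vertical), log2, one point per gene, for protein-coding genes and annotated lncRNA. The dashed line marks equal effects, and red points are the 44 called lncRNA. Protein-coding genes scatter around 0, while the lncRNA cloud sits up and left of it, at medians of -0.22 and 0.13.

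Widely studied nuclear lncRNA leaned the same way without passing in the main fit. Malat1, an abundant RNA of nuclear speckles, stood at 2138, 2002 and 1951 FPKM in STG, 1723, 1742 and 1477 in CTG, 1053, 842 and 1066 in SSp5C and 1039.6, 1174 and 1235 in CSp5C. Its ganglion groups did not overlap and its nucleus groups did, with an interaction of -0.53 (SE 0.15, adjusted p = 0.0588 by limma). Neat1, the scaffold of paraspeckles, was at -0.53 (adjusted p = 0.101), with C below S in TG by 0.36 and above it in Sp5C by 0.17. After scaling within the table both stood at 0.03.

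Miat, a neuronal lncRNA, differed mainly in the ganglion. It stood at 26.8, 22.4 and 23.5 FPKM in STG, 10.5, 16.9 and 12.2 in CTG, 9.25, 8.75 and 11.997 in SSp5C and 7.16, 12.4 and 16.2 in CSp5C. The ganglion groups parted and the nucleus groups overlapped, with an interaction of -1.05 (adjusted p = 0.0763) and of -0.51 after scaling. Meg3 and Snhg11 are not analysed here. Of the 5 lncRNA with a positive interaction and the smallest p, RP23-357C16.1 (0.56), CH36-12I15.2, RP24-185P7.1 (0.48), RP23-65G6.2 (0.94) and Abhd1 (0.42), none passed (adjusted p from 0.0951 to 0.163). CH36-12I15.2 is listed at 0 in all 6 TG libraries, so no value is given for it.

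Loci assembled from the reads, which carry no gene name, repeated the lean in part. Of 5150 loci, 460 were tested and 0 passed by limma (0%, lowest adjusted p 0.135), with 83 (18%) at an unadjusted p under 0.05, of which 82 were negative. The interaction was negative in 345 of 460 (75%), with a median of -0.26, and 12 (2.61%) had C below S in every TG library and above it in every Sp5C library. In TG alone 108 (23.5%) parted with C below, and in Sp5C alone 48 (10.4%) with C above. Assembled lincRNA had a median of -0.32 (228 of 285 negative) and antisense loci -0.22 (83 of 109). The 66 assembled intronic loci did not lean, at a median of -0.02 with 34 negative, unlike the annotated lncRNA of introns. Scaling within the table moved the median of all loci to 0.04, with 46.5% negative.

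XLOC_181328 had the smallest p of the assembled loci. It stood at 4.78, 2.60 and 3.37 FPKM in STG, 2.52, 2.19 and 2.46 in CTG, 2.28, 1.78 and 1.78 in SSp5C and 3.98, 3.94 and 4.37 in CSp5C. It parted in both tissues, with an interaction of -1.38 (SE 0.28, adjusted p = 0.135 by limma), and passed at 0.0381 where only loci of at least 2 FPKM were tested. XLOC_007342 (-0.94), XLOC_127267 (-0.56) and XLOC_046433 (-0.80) also parted in both tissues, and XLOC_201389 (-0.9998) in the ganglion. The positive loci of smallest p were XLOC_026494 (1.03), XLOC_060867 (1.06), XLOC_013489 (1.29), XLOC_056521 (0.28) and XLOC_147239 (0.30).

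No gene list had a member past the threshold, and several lists nevertheless leaned one way. All 18 interferon response genes had a negative interaction (median -0.39, against -0.007 for all genes tested), from Gbp3, a guanylate-binding protein (-0.89), to values near -0.10, with effects of -0.11 in TG and 0.26 in Sp5C at the median. Of 11 genes of MHC class I and II, which present antigens, 10 were negative (median -0.41), H2-Ab1 at -0.84 and Tap1 at -0.56. In both lists 0 members had an unadjusted p under 0.05, beside 5.41% of all genes tested.

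Both medians moved with single libraries. The mean log2(FPKM + 1) of the interferon genes was 4.51, 3.92 and 3.42 in STG, 3.82, 4.23 and 3.51 in CTG, 2.16, 2.24 and 2.29 in SSp5C and 2.77, 2.82 and 2.02 in CSp5C. STG replicate 1 was the highest of the ganglia and CSp5C replicate 3 the lowest of all, and the groups overlapped in both tissues. The median went to -0.10 without STG replicate 1, -0.63 without STG replicate 3 and -0.07 with library weights, and that of the MHC list to -0.16 without CSp5C replicate 1 and -0.96 without CSp5C replicate 3.

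Circadian clock genes were negative in 13 of 15 (median -0.25), Per3 at -0.52 and Clock at -0.33, which became -0.06 at the median without STG replicate 1. Oxidative phosphorylation genes were positive in 22 of 23 (median 0.12, with 0.07 without CTG replicate 3 and 0.05 after quantile normalization), with Atp5d at 0.27 and Sdhb, a subunit of succinate dehydrogenase, at 0.26. Genes of endoplasmic reticulum stress were positive in 15 of 16 (median 0.16), Herpud1 at 0.22 and Sdf2l1 at 0.45, and the median was 0.07 without CTG replicate 1. Ribosomal protein genes were positive in 21 of 25 (median 0.10), with Rps27 at 0.82 and Rpl8 at 0.20, and the median was 0.03 without CTG replicate 1, 0.21 without STG replicate 1 and 0.03 after quantile normalization. Reads of ribosomal proteins can be shared with processed copies, so single values are uncertain.

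Glucocorticoid response genes stood higher in C in both tissues, with little difference between them. Their median C minus S was 0.40 in TG and 0.51 in Sp5C, and the median interaction was -0.02, with 6 positive and 9 negative of 15, and its sign depended on the setting (0.07 without CTG replicate 1, -0.06 after quantile normalization). Fkbp5, a chaperone of the glucocorticoid receptor, was above S in every C library of both tissues, by 0.37 in each, with an interaction of -0.005 (95% interval -0.37 to 0.36). Ddit4, an inhibitor of mTORC1 signalling, had effects of 0.46 and 0.51 (interaction -0.05, interval -0.40 to 0.30). These intervals bound the difference but do not show that the effects are equal.

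Mt1 and Sgk1 were the 2 members with an unadjusted p under 0.05. Mt1, a zinc-binding protein, stood at 37.0, 36.7 and 38.5 FPKM in STG, 60.1, 64.9 and 69.9 in CTG, 173, 173 and 166 in SSp5C and 239, 229 and 170 in CSp5C. The ganglion groups parted, and CSp5C replicate 3 fell among the S libraries (interaction 0.48, SE 0.15, unadjusted p = 0.0101, adjusted p = 0.862 by limma). Mt2 was at 0.43, with C above S throughout both tissues. Sgk1, a kinase induced by steroid hormones, had the larger effect in Sp5C (0.93 against 0.28), with SSp5C at 24.4, 20.3 and 25.2 FPKM and CSp5C at 30.9, 56.6 and 52.9, and an interaction of -0.66 (unadjusted p = 0.0408, adjusted p = 0.893).

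Lists of sensory neurons, injury, activity and inflammation had medians between -0.11 and 0.16. Peptidergic nociceptor genes were positive in 8 of 10 (median 0.16, with 0.11 without STG replicate 3, 0.29 without CSp5C replicate 3 and 0.35 with library weights), Scn10a, a sodium channel of pain neurons, at 0.36, Trpa1 at 0.30, Tac1, the precursor of substance P, at 0.36 and Trpv1, the capsaicin receptor, at 0.26, while Calca, the precursor of CGRP, stood at -0.001 (interval -1.04 to 1.04). Medians were 0.03 for non-peptidergic and itch neurons, -0.04 for large myelinated afferents, 0.04 for nerve injury, -0.11 for neuronal activity with Fos at -0.35, 0.07 for cytokines, 0.06 for reactive glia and -0.07 for complement. Without single libraries the complement median ran from -0.41 (without CSp5C replicate 3) to 0.33 (without CSp5C replicate 1), and those of the other 6 lists lay between -0.19 and 0.16. Atf3, induced in injured sensory neurons, was at -0.02, Gfap, of astrocytes and satellite glia, at 0.02 and Aif1, of microglia and macrophages, at 0.01. Il1b and Ccl2 lay under the filter. Cell cycle genes were positive in 9 of 10 (median 0.18), which became -0.004 without CTG replicate 1 and 0.32 without CTG replicate 3. Medians of heat shock (-0.04), cholesterol synthesis (0.03, and -0.01 after quantile normalization), inhibitory transmission (-0.05) and glutamate receptor genes (-0.07) were near 0 and lay between -0.20 and 0.09 without single libraries.

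**Figure D5:**
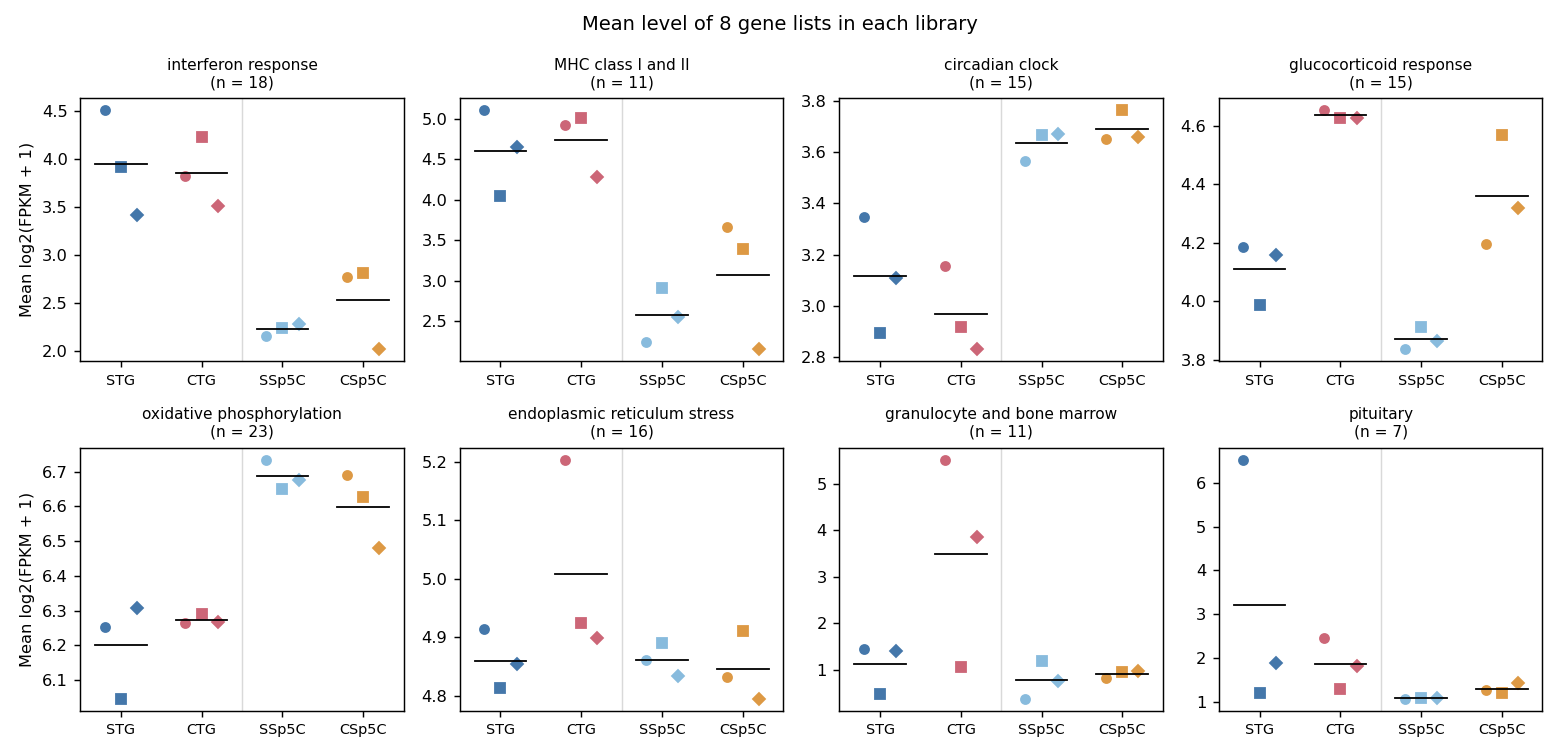
Mean log2(FPKM + 1) of 8 gene lists (vertical axes, which differ between panels and do not start at 0) in each of the 12 libraries. Circles, squares and diamonds are replicates 1, 2 and 3, and lines are group means. Glucocorticoid genes lie higher in C in both tissues, interferon and MHC genes overlap between letters, and granulocyte and pituitary genes stand high in single ganglia.

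Markers of neighbouring tissues had medians far from 0, and several moved with single libraries. Granulocyte and bone marrow genes were positive in 11 of 11 tested (median 2.21), with a summed level, as the mean log2(FPKM + 1), of 0.48 to 1.46 in STG, 5.52, 1.07 and 3.86 in CTG, 0.38 to 1.19 in SSp5C and 0.83 to 0.97 in CSp5C. The median was 1.28 without CTG replicate 1 and 0.76 with library weights. Mpo, of neutrophil granules, stood at 24.7, 1.28 and 4.43 FPKM in CTG and at most 0.508 in the other 9 libraries (interaction 2.36, adjusted p = 0.887). Ibsp, bone sialoprotein, stood at 2.04, 2.65 and 2.27 FPKM in STG and 6.13, 3.55 and 5.11 in CTG and did not exceed 0.0176 in Sp5C, with an interaction of 0.82. Bglap, osteocalcin, stood at 1.51, 1.51 and 2.46 FPKM in STG, 64.1, 8.44 and 2.60 in CTG and at most 0.686 in Sp5C. Of 8 bone and cartilage genes tested 6 were positive (median 0.41, and 0.07 without CTG replicate 1).

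Pituitary genes were negative in 7 of 7 tested (median -1.83). Their level was 6.53 in STG replicate 1, 1.20 and 1.90 in the other STG libraries and 1.07 to 2.46 in the other groups, and the median was -0.05 without STG replicate 1. Cga, the hormone subunit shared by gonadotropins and thyrotropin, stood at 139 FPKM there and at most 3.10 elsewhere. Meningeal and fibroblast genes were negative in 10 of 11 (median -0.62, with -1.20 without SSp5C replicate 2 and -0.27 without SSp5C replicate 1), with levels of 4.85 to 5.90 in TG, 2.87, 4.53 and 3.00 in SSp5C and 4.40, 4.31 and 3.26 in CSp5C. Erythrocyte genes were positive in 7 of 7 (median 1.24), and the median was 0.48 without STG replicate 2 and 2.26 without STG replicate 3. In dissected tissue a different share of cells and a different amount of RNA per cell cannot be told apart, and the part of these tissues in the interactions of other genes was not tested. Skeletal muscle had 0 markers past the filter and lymphocytes 1, Ptprc.

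Markers of resident cells had medians nearer to 0. Medians were -0.09 for satellite glia and astrocytes, 0.12 for Schwann cells, 0.12 for oligodendrocytes, -0.05 for microglia and macrophages and -0.07 for endothelium. Outside the sampled tissues proper, they were -0.03 for choroid plexus and ependyma and -0.17 for cerebellar cells. Leaving out a library took the Schwann median to 0.03 (CTG replicate 2), the oligodendrocyte median to -0.10 (CTG replicate 1) or 0.34 (CTG replicate 3) and the microglial median to -0.37 (CSp5C replicate 3) or 0.37 (CSp5C replicate 1). It took the choroid plexus median to -0.36 (STG replicate 2) or 0.05 (STG replicate 1), the astrocyte and satellite glia median to -0.18 (CTG replicate 1) or -0.01 (STG replicate 3), the endothelial median to -0.14 (CTG replicate 1) or 0.01 (STG replicate 1) and the cerebellar median to -0.30 (STG replicate 2) or -0.06 (CSp5C replicate 3). Schwann markers were 7 positive and 5 negative, S100b at 0.38, and oligodendrocyte markers 9 positive and 3 negative, Opalin at 0.59. Microglia and macrophage markers were 7 positive and 9 negative. Of these, Cx3cr1, the fractalkine receptor of microglia, was negative at -1.20, with 6.07, 5.22 and 1.54 FPKM in STG, 0.966, 0.985 and 0.615 in CTG, 1.85, 1.85 and 1.66 in SSp5C and 2.53, 1.32 and 0.801 in CSp5C.

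Some genes had values listed at 0, which may mark an abundance that could not be estimated. Mrps10, of the mitochondrial ribosome, stood at 3.70, 0 and 0 FPKM in STG, 0, 4.99 and 0.136 in CTG and 3.67, 5.49 and 6.22 in SSp5C and is listed at 0 in all 3 CSp5C libraries. The 3 spermatid genes tested, Prm1, Prm2 and Tnp1, are listed at 0 in STG replicate 1, CTG replicate 3 and all 3 CSp5C libraries and stood at 1.31 to 3.44 FPKM in the other 7. Epo, erythropoietin, is listed at 0 in CSp5C and stood at 1.45, 1.22 and 3.12 FPKM in SSp5C, 0.0857, 0.0682 and 1.83 in STG and 4.99, 1.98 and 1.79 in CTG. Epg5 is listed at 0 in STG, SSp5C and CSp5C replicate 2 and stood at 3.27 to 4.32 FPKM in the other 5 libraries. The uncharacterised gene 2810474O19Rik was at -1.3004 (unadjusted p = 0.0784), with STG at 14.6, 3.25 and 13.3 FPKM.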

How the data were processed

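Total RNA of 12 libraries was depleted of ribosomal RNA and made into stranded libraries, per the labels' protocols. The submitters' processing notes name HISAT2, StringTie 1.3.1 and Cuffdiff 2.1.1. For build and annotation no source used here gives a name. FPKM per transcript were deposited by the authors as 3 tables (protein-coding, annotated lncRNA, assembled lncRNA). The tables were used as deposited and tested separately. Values of different tables were joined only for intronic lncRNA minus host gene and for the share of XLOC_000066. In the former, each log2 value kept the pseudocount of its own table, so the pseudocounts of lncRNA and host differ. The latter is a share of the FPKM summed over the 3 tables. Being scaled, the tables hold no depth.

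Transcript FPKM were summed per gene. Genes with a mean of at least 1 FPKM (protein-coding) or 0.5 (lncRNA) over the 12 libraries were log2-transformed with a pseudocount of 1 or 0.5. A model with 4 group means was fitted to each with limma 3.58.1 (R 4.3.3; trend, robust, two-sided), and the interaction was adjusted over all its genes by Benjamini-Hochberg with a threshold of 0.05. The same fit gave the effect in each tissue. The code was tested on simulated data. Figures were drawn with matplotlib 3.10.9.

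The contrast, 20 gene lists and 15 marker lists were chosen with earlier results of these data known. Named were the 12 protein-coding genes and 5 lncRNA of each kind with the smallest p in each direction, up to 2 per list, and a set of looked-up genes. Alternatives were other pseudocounts, filters, scalings, variance settings, library weights, transcripts tested singly, replicate blocks and leaving out each library. Of tested genes, 13064 of 13081 protein-coding and 1422 of 1431 annotated lncRNA matched GENCODE M21.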

Additional observations from a re-analysis of the deposited data

Results flagged for a closer look

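In the main fit, 44 of 1431 annotated lncRNA (3.07%) passed the test of a difference between ganglion and nucleus in C against S. After the host gene's value was taken off, in a fit added after seeing the data, 20 of 625 intronic lncRNA passed. Both counts went to 0 after median-ratio scaling and without certain single libraries. The 44 also went to 0 with either replicate block. Of the 44, the 5 of smallest p had C lower in TG and higher in Sp5C by their means. They were RP23-71L21.6 at -1.33, RP23-306D20.7 at -0.89, RP23-349H12.7 at -0.88, RP23-457L16.2 at -1.26 and RP23-174K9.1 at -1.22.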

How the results depend on the processing

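Of protein-coding genes, 2 transcripts passed the interaction when transcripts were tested singly, and 0 to 2 genes did when each library was left out in turn: Rims1 without CTG replicate 1, Chil3 and Ceacam10 without CTG replicate 2, Dgcr2 and Med1 without SSp5C replicate 2, Snx3 and Utrn without SSp5C replicate 3. In TG alone the count was 5 with library weights, 3 for single transcripts and 0 to 5 without single libraries (5 without CTG replicate 2). In Sp5C alone it was 1 with a pseudocount of 0.1 and 0 to 2 without single libraries. The median of the bin of shortest genes was 0.0539 with library weights.

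Of annotated lncRNA, against 44, the count was 0 with no filter, 13 from a mean of 2 FPKM, 0 after median-ratio scaling, 0 after quantile normalization, 199 with library weights, 0 for single transcripts and 28 with protein-coding median ratios, an alternative chosen after seeing the data. It ran from 0 to 228 without single libraries. Against 13 in TG alone, it was 21 from a mean of 2 FPKM, 8 from 0.5 FPKM in each tissue, 0 after either scaling, 0 for single transcripts and 0 to 41 without single libraries (41 without CTG replicate 2). In Sp5C alone it was 4 with library weights and 0 to 1 without single libraries. The median interaction was -0.51 with a pseudocount of 0.1 (intronic -0.73), -0.25 from 2 FPKM, -0.00148 after median-ratio scaling (intronic -0.16) and -0.0162 after quantile normalization (intronic -0.16). The cause of these shifts was not tested.

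Of assembled loci, 1 passed the interaction from a mean of 2 FPKM, and 1 passed in TG and 1 in Sp5C with no filter. Their median was -0.38 with a pseudocount of 0.1, -0.19 from 2 FPKM, 0.0373 after median-ratio scaling and -0.00733 after quantile normalization. For intronic lncRNA minus host, against 20 pairs, 0 passed after median-ratio scaling in each table (median -0.11), and 0 to 157 passed without single libraries.

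With the replicate number as a block over all groups, 0 annotated lncRNA passed the interaction, 0 passed in TG, and 2 pairs passed for lncRNA minus host. With letter and number as a block across tissues 0 annotated lncRNA passed. Deviations of same-numbered libraries of a letter correlated above 0.1 in 3 of 6 pairs in each table, and these were the 3 C pairs (0.23 to 0.38 in protein-coding genes, 0.25 to 0.48 in annotated lncRNA, 0.53 to 0.57 in assembled loci), whereas the S pairs ran from -0.20 to 0.10. Over all pairs of groups, in annotated lncRNA same-numbered libraries exceeded 0.1 in 8 of 18 pairs and unlike-numbered ones in 5 of 36. In protein-coding genes this was 5 of 18 and 9 of 36, and in assembled loci 7 of 18 and 8 of 36. Pairs across letters were among them, such as SSp5C and CSp5C replicate 3 at 0.27 in annotated lncRNA. What the numbers stand for was not tested, and the labels do not say.

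Interactions near 0 changed sign. Fkbp5 was 0.0122 after median-ratio scaling, 0.0230 after quantile normalization, 0.0179 with library weights and -0.106 to 0.0986 without single libraries. Calca was 0.0164 after median-ratio scaling, 0.46 with library weights and -0.44 to 0.29 without single libraries. Gfap was -0.0409 after quantile normalization, -0.16 with library weights and -0.45 to 0.44 without single libraries. Atf3 was 0.0364 after quantile normalization and -0.159 to 0.0823 without single libraries. Ddit4 was 0.00529 with library weights and -0.147 to 0.0727 without single libraries, and Itgam was -0.0217 with library weights. Without single libraries Aif1 ran from -0.41 to 0.48, Ptprc from -0.11 to 0.66 and Epg5 from -0.23 to 0.97. Malat1 was 0.0315 and Neat1 0.0268 after median-ratio scaling.

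Among named genes and loci, 11 changed sign somewhere and 5, the called lncRNA, lost their call somewhere. A call was gained in 6 combinations of gene and setting. The lowest adjusted p by limma over the alternatives was 0.0235 for Malat1 and 0.0222 for Miat. Groups of 3 libraries limit precision, FPKM keep no depth, and lncRNA near 1 FPKM depend on the pseudocount.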
